A study of Mus musculus with 12 samples.

Results

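Wild-type lymph node cells were compared with and without antigenic peptide, across all genes on the array. The comparison used 6 of the 12 arrays of the series, chosen by sample title: 3 arrays of cells cultured for 4 h with the peptide gp33-41 at 62.5 ng/ml and 3 arrays of cells cultured for 4 h with no peptide. The cells came from lymph nodes of 3 wild-type mice of the P14-TCR strain, a strain whose transgenic T cell receptor recognises that viral peptide on MHC class I, so the transgene was shared by both groups. Each mouse gave both arrays, and each array with peptide was paired with the array without it through the animal number in the labels. Whole cell suspensions were used, with no sorting step given in the labels, and no source used here gives the age or sex of the mice. The remaining 6 arrays held the same cultures from 3 mice without protein kinase D2 (PKD2-null, same strain) and served here to estimate the spread and, at the end, for a single comparison of the responses.

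A naive T cell is small and quiescent. When its receptor meets peptide, kinases next to the receptor open calcium, diacylglycerol, MAP kinase and PI3 kinase signalling, which drive AP-1, NFAT, NF-kappaB and MYC and remove FOXO factors from the nucleus. Over the following hours the cell changes its surface receptors, builds ribosomes and raises nutrient uptake, while the genes that keep it at rest and recirculating are turned down; cell division starts only about a day later. The question here was how far each of these programmes had moved at 4 h, beyond the cytokines and chemokines that lead the response.

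Every change below is a difference of log2 signals, peptide minus no peptide, with the standard error (SE) of a limma fit that keeps the mouse as a block (n = 3 mice). A gene was called when its adjusted two-sided p, over all 45037 probe sets tested, lay under 0.05, and "rose" and "fell" are used of called genes only. Each of the 18193 genes stands for its brightest probe set. Of them 2965 (16.3%) rose and 4003 (22%) fell, with a median change of 0.01 over all genes. By at least 1 (a doubling or reduction by that factor), 1015 genes rose (5.58%) and 1080 fell (5.94%). The rises reached further than the falls: 269 genes rose by 2 or more and 77 by 3 or more, against 84 and 4 that fell by as much, and the extremes were 9.19 and -3.49. Most called changes were modest, with medians of 0.69 among the risen and -0.70 among the fallen genes, and 979 rises and 1117 falls were smaller than 0.5. The calls were taken mainly from well-expressed genes: with genes cut by mean signal into 4 groups of equal size, 2.55% rose and 0.923% fell in the dimmest group, and 33.7% and 39.7% in the brightest. The gene lists below were not matched to all genes by signal. The changes of single mice correlated across genes at 0.876 to 0.926 (a description, since genes are not independent), and 2957 of the risen and 3994 of the fallen genes had 1 sign across the 3 mice. In 274 called genes the arrays with and without peptide overlapped. Centring each array on the median of its brighter probe sets (those above the median level) shifted the median of all genes from 0.014 to 0.125 and turned the split from 2965 up and 4003 down (42.6% up) to 4259 up and 3371 down (55.8% up). Small changes are therefore read relative to the scaling.

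**Figure D1:**
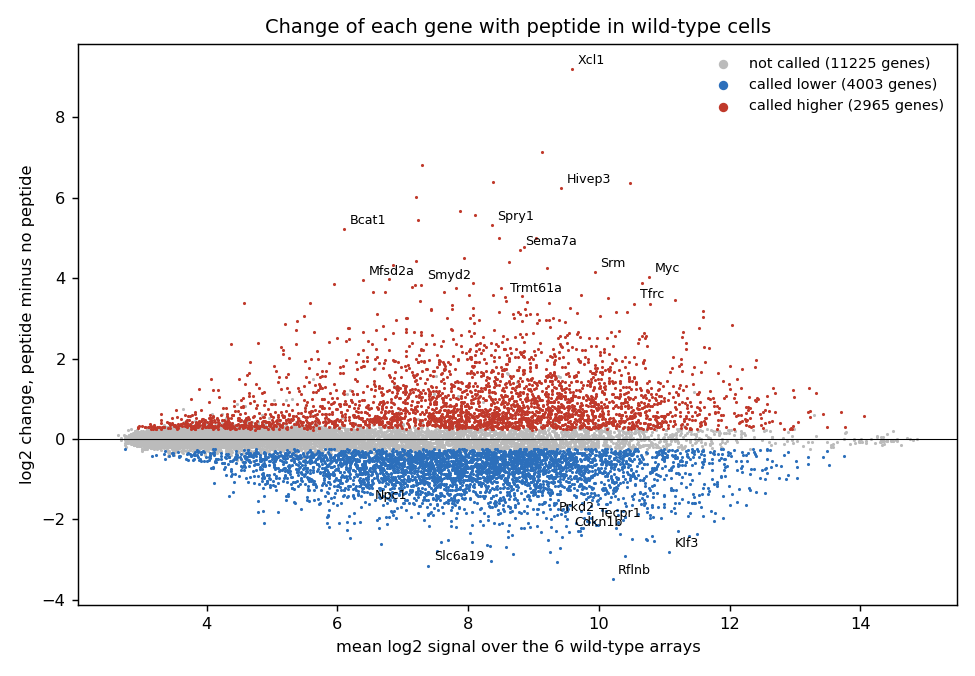
Each point is 1 of 18193 genes, placed by its mean log2 signal over the 6 wild-type arrays (horizontal) and its log2 change, peptide minus no peptide (vertical), with 2965 genes called higher in red, 4003 called lower in blue and the rest in grey. The rises reach 9.19 and the falls -3.49, and few called genes lie at the dim left end.

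The arrays carried the markers that the labels imply. Cd3e, a chain of the T cell receptor complex, read 9.254, 9.263 and 9.446 in mice 1 to 3 without peptide and 9.037, 9.205 and 9.036 with it, and Cd8a read 10.35, 10.62 and 10.42 without and 10.23, 10.35 and 9.885 with peptide, all far above the array medians of 4.66 to 4.72. Neither was called. Of the 12 measured T cell identity genes 3 rose and 4 fell, and their mean was 10.6 to 10.7 without and 10.8 to 10.9 with peptide. Of the 6 CD8 T cell genes Crtam (6.39) and Nkg7 (1.56) rose and Cd8b1 (-1.38) and Cd7 (-1.72) fell, with a median change of -0.24. Their mean was 8.81 to 9.14 without and 9.65 to 9.72 with peptide. That higher mean came from Crtam, among the 10 largest rises of all genes, and does not show a rise of CD8 T cell markers in general. B cell genes were present too: 14 B cell markers had a mean signal of 8.77 to 8.86 without peptide and 8.14 to 8.32 with it, and 11 of them fell. The mean of 22 myeloid and dendritic cell markers was 6.83 to 7.22 without and 7.12 to 7.22 with peptide, and 10 of 13 stroma and endothelium markers stayed under 5 on all 6 arrays. In such mixed cells a lower share of a cell type and less RNA per cell cannot be told apart. Transcripts of salivary gland, a tissue that lies beside neck lymph nodes, differed by mouse: Mucl2 read 3.144, 3.633 and 11.88 without peptide and 3.309, 7.411 and 11.86 with it in mice 1 to 3, and 0 of 11 such markers were called (2 rose when mouse 1 or mouse 3 was left out, and 1 fell without mouse 2). Their mean spanned 5.35 to 8.56 without and 6.12 to 8.55 with peptide, and mouse 2 differed most between its own 2 arrays; their part in other results was not tested. The 3′ minus 5′ signal of the actin control, a sign of RNA integrity, was 0.252 to 0.296 without peptide and 0.181 to 0.238 with it. Prkd2, the gene deleted in the other genotype, was itself high in resting wild-type cells and fell with peptide, from 10.28, 10.42 and 10.12 to 8.206, 8.351 and 8.485 (-1.92, SE 0.12), with no overlap between the groups.

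The 10 largest rises held the transcription factor genes Hivep3 (6.24) and Tbx21, which encodes T-bet (5.67). The next were of varied kinds. Spry1, a Sprouty inhibitor of Ras-MAP kinase signalling, read 6.1, 5.775 and 5.253 in mice 1 to 3 without peptide and 11.33, 10.82 and 10.91 with it. Bcat1, the cytosolic enzyme that transaminates branched-chain amino acids, read 3.624, 3.649 and 3.221 without and 8.62, 8.626 and 8.87 with peptide. Both genes read lower in every resting array than in any array with peptide, by a wide gap, and they rose by 5.31 (SE 0.12, adjusted p = 2.1e-08) and 5.21 (SE 0.13, adjusted p = 3.2e-08). Sema7a, a GPI-anchored semaphorin, read 6.85, 6.175 and 6.307 and then 11.47, 10.87 and 11.1, a rise of 4.70 (SE 0.14). Srm, spermidine synthase of the polyamine pathway, went from 7.918, 7.847 and 7.846 to 12.05, 12.08 and 11.93, so that the 3 mice lay within a narrow band on each side of a rise of 4.15 (SE 0.13, adjusted p = 8.4e-08). Mfsd2a, a transporter of lysophosphatidylcholine lipids, rose by 3.95 (4.377, 4.209 and 4.677 without, 8.692, 8.225 and 8.202 with peptide). Tnfsf11, which encodes the cytokine RANKL, rose by 5.01, Tnfrsf9, the costimulatory receptor 4-1BB, by 4.77, Cxcl10, an interferon-induced chemokine, by 4.99 and Lif, a cytokine of the interleukin 6 family, by 4.33. The SLAM family receptors Slamf1 and Slamf7 rose by 4.25 and 3.99.

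Mir155hg, the host transcript of the microRNA shown next, rose from 5.497, 4.987 and 4.52 to 9.937, 9.136 and 9.19 (4.42, SE 0.19, adjusted p = 2.9e-07), with no overlap between the groups. The array reads the host transcript and not the mature microRNA. The mature strand it encodes (RefSeq, GRCm38.p6, chr16:84714143-84714165, plus strand) is shown because its seed, bases 2 to 8 in capitals, is what pairs with target messages.
mmu-miR-155-5p: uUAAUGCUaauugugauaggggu

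The 25 largest falls ran from -3.49 (Rflnb) to -2.44 (Acp5). Slc6a19, a sodium-coupled transporter of neutral amino acids, read 8.703, 9.256 and 8.948 without and 5.479, 5.974 and 6.002 with peptide, a change of -3.15 (SE 0.11). Dusp10, a phosphatase of the stress kinases p38 and JNK, fell from 10.16, 9.661 and 9.94 to 7.122, 7.084 and 7.493 (-2.69, SE 0.12). Mex3b, an RNA-binding protein (-2.60), Cdc25b, a phosphatase that activates mitotic kinases (-2.57), and Slc12a7, a potassium-chloride cotransporter (-2.52), fell by similar sizes. So did Fbxo32, the ubiquitin ligase subunit atrogin-1 (-2.55), Rnf125, a ubiquitin ligase first described in T cells (-2.51), and Tsc22d3, the glucocorticoid-induced leucine zipper GILZ (-2.50). Mxd4, which pairs with MAX and opposes MYC at E-boxes, read 9.704, 9.954 and 9.854 without and 7.09, 7.544 and 7.551 with peptide (-2.44, SE 0.13), while Myc went the other way, from 8.863, 8.561 and 8.877 to 12.98, 12.61 and 12.76 (4.02, SE 0.18). The last of the 25 was Acp5, tartrate-resistant acid phosphatase (-2.44); Als2cl (-2.67), Fam189b (-2.63), Cep97 (-2.51) and Lypd6b (-2.47) lay between these values.

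**Figure D2:**
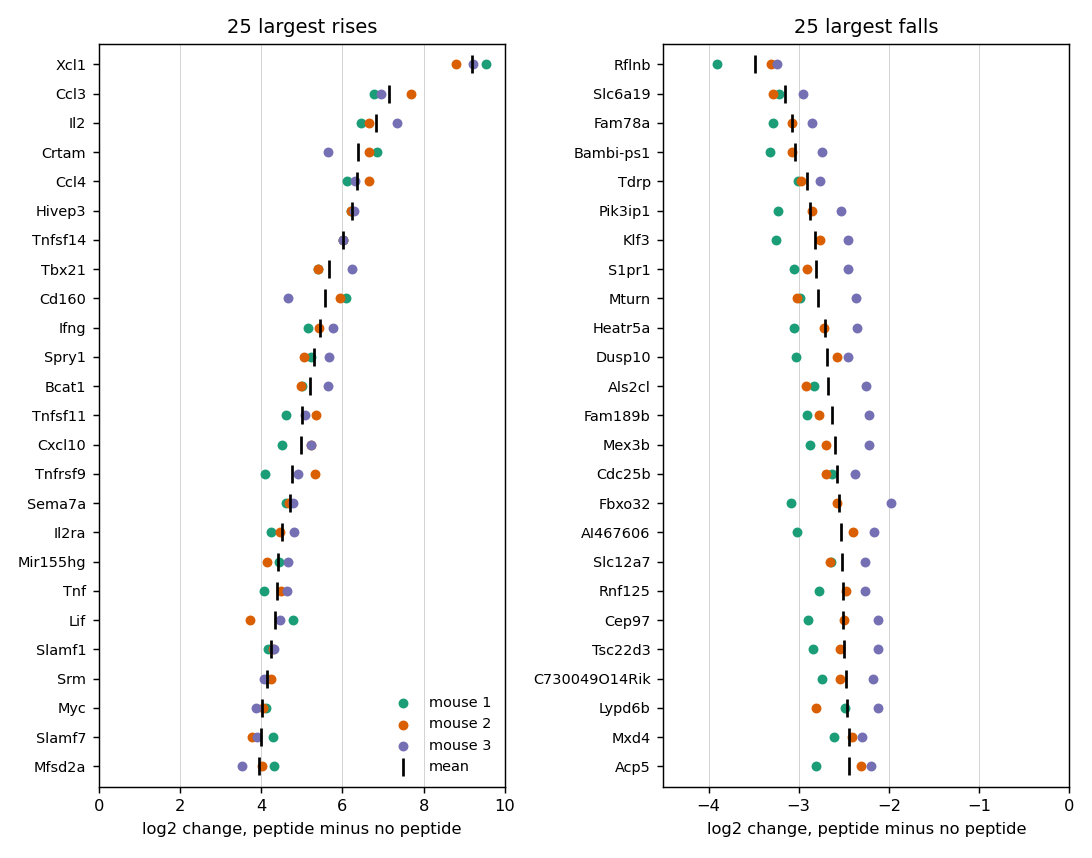
The 25 largest rises (left) and 25 largest falls (right) among called genes that moved the same way in all 3 mice, with the log2 change of each mouse as a coloured point and their mean as a black tick. The rises run from 3.95 (Mfsd2a) to 9.19 (Xcl1) and the falls from -2.44 (Acp5) to -3.49 (Rflnb).

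Ribosome assembly factors rose almost without exception. Of 43 genes of the small subunit processome, the complex that folds and cuts the precursor of 18S ribosomal RNA, 41 rose and 0 fell (median 1.64, against 0.01 over all genes). Of 46 large subunit assembly factors 44 rose and 2 fell (median 1.66), and of 23 genes for small nucleolar ribonucleoproteins and rRNA modification 21 rose and 1 fell (median 1.65). Rrp12, which helps export pre-ribosomes from the nucleus, read 6.722, 6.563 and 6.679 in mice 1 to 3 without peptide and 9.635, 9.442 and 9.553 with it (2.89, SE 0.11). Rrp1b rose by 3.58, Rrp15 by 3.40 and Rpf2, which brings 5S RNA to the large subunit, by 2.96. Nolc1, which binds the box C/D and H/ACA particles, rose by 3.05 and Dkc1, the pseudouridine synthase dyskerin, by 2.57. The exceptions were Nop53 (-0.71, and 0.41 on a dimmer probe set called higher) and Nsa2 (-0.32, a call lost without mouse 1 or mouse 3) of the large subunit list and Pih1d1 (-0.36), an assembly cochaperone. Of 15 RNA polymerase I genes 10 rose and 2 fell, led by Polr1b, its second largest subunit (2.96), and Cd3eap (2.67). The proteins of the finished ribosome behaved otherwise: among 23 large and 23 small cytosolic ribosomal proteins 4 rose and 1 fell, with medians of -0.03 and -0.04. Those called were Rpl12 (1.31), Rpl14 (0.53), Rps25 (1.22), Rps27l (0.93) and Rpl27a (-0.62, a call lost without mouse 1 or mouse 3). Without peptide the mean signals of these 46 messages had a median of 14.2, on a scale whose highest value was 15.07, and 36 of them lay above 12.

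The E-box, bound by MYC with MAX and by their relatives, was searched for in RefSeq promoters (250 bases before to 50 after a start site, GRCm38.p6) as CACGTG, which reads the same on both strands. Of 14367 genes with a promoter there, 10.3% held it, as did 15.1% of the risen, 11% of the fallen and 18.6% of the genes that rose by 2 or more. Among the processome genes 11 of 35 (31.4%) held it, and among large subunit assembly factors 9 of 39 (23.1%), but among the snoRNP genes, which rose as much, 0 of 17. The ETS motif CCGGAAG, searched on both strands, was in 15% of all, 23.8% of the risen and 19.3% of the fallen genes' promoters, and the AP-1 motif TGAGTCA in 5.34%, 4.86% and 3.8%. A match describes the letters in the window and not a bound factor. Windows were chosen from the first promoter listed for each gene, with 1 chromosome left out. Among those, the 4 processome genes with the largest rises and a match before the start site are shown with 60 bases each, the E-box in capitals, 5′ to 3′ along the gene: Nol11 (chr11:107189392-107189451, minus strand, rose by 1.99), Utp18 (chr11:93885767-93885826, minus strand, 1.70), Wdr46 (chr17:33940663-33940722, plus strand, 1.69) and Imp4 (chr1:34439681-34439740, plus strand, 1.58).
Nol11: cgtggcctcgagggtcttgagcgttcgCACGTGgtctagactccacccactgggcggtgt
Utp18: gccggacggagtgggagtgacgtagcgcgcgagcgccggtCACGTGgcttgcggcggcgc
Wdr46: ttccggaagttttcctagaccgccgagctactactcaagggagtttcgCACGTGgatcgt
Imp4: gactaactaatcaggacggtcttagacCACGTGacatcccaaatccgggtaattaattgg

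Transfer RNA genes followed. Of 54 genes that process or modify tRNA 44 rose and 5 fell (median 0.85). Trmt61a, the catalytic subunit of the tRNA m1A58 methyltransferase, read 6.745, 6.511 and 7.142 in mice 1 to 3 without peptide and 10.43, 10.29 and 10.24 with it, a rise of 3.52 (SE 0.14, adjusted p = 2.3e-07). Mettl1, which makes m7G in tRNA, rose by 2.72, Pus7, a pseudouridine synthase, by 2.52 and Qtrt2, of the queuine transferase, by 2.38. Tsen34, of the tRNA splicing endonuclease, fell by 1.24. RNA polymerase III, which makes tRNA and 5S RNA, had 11 of 21 genes up and 4 down. Polr3d (1.91) and Polr3e (1.88) rose, and Maf1, the repressor of that polymerase, fell from 11.27, 11.59 and 11.35 to 9.785, 9.914 and 10.08 (-1.47, SE 0.11). Cytosolic and mitochondrial tRNA synthetases parted: 20 of 22 genes of cytosolic synthetases and their complex rose and 1 fell (median 1.26), with Rars, Tars and Yars at 1.92, 1.84 and 1.72, whereas 6 of 16 mitochondrial ones rose and 4 fell (median 0.06). Qars, the glutaminyl synthetase, was the cytosolic exception (-0.54).

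In translation itself 23 of 41 initiation genes rose and 5 fell, and 12 of 20 elongation and release genes rose and 2 fell. Eif2b3, of the exchange factor that recharges eIF2, rose by 2.54, Eif1a by 2.02 and the cap-binding protein Eif4e from 9.708, 9.64 and 9.802 to 11.59, 11.73 and 11.58 (1.91, SE 0.089). Eif2ak3, the kinase PERK that halts initiation under ER stress, fell from 11.06, 11.01 and 11.1 to 8.778, 8.888 and 9.05 (-2.15), and Eef2k, which inhibits elongation, fell by 0.61 (-0.02 without x_at and s_at probe sets, a call lost). Chaperone genes rose as well. Of 40 heat shock genes 22 rose and 4 fell, led by the mitochondrial chaperones Hspd1 (10.52, 10.45 and 10.46 without, 12.72, 12.73 and 12.81 with peptide; 2.28) and Hspa9 (2.05). Of 34 genes of ER folding and stress 14 rose and 8 fell (5 fell without mouse 1): the chaperone Hspa5, or BiP, rose by 1.28, and the stress genes Trib3 (-0.98, a call lost without mouse 1) and Ddit3, which encodes CHOP (-0.84), fell. The proteasome, which degrades ubiquitin-marked proteins, had 33 of 39 genes up and 1 down (median 0.58), most by under 1, with its assembly chaperones Psmg1 (1.43), Psmg2 (1.43) and Pomp (1.11) among the leaders. In a separate list of 16 genes of MHC class I processing 6 rose and 3 fell. There the immunoproteasome subunits Psmb8 (-0.46) and Psmb10 (-0.61) fell, and Psme3, the nuclear proteasome activator, rose by 2.11. The cytosolic chaperonin and its partners had 12 of 20 genes up and 5 down (2 down without mouse 1 and 3 without mouse 3).

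**Figure D3:**
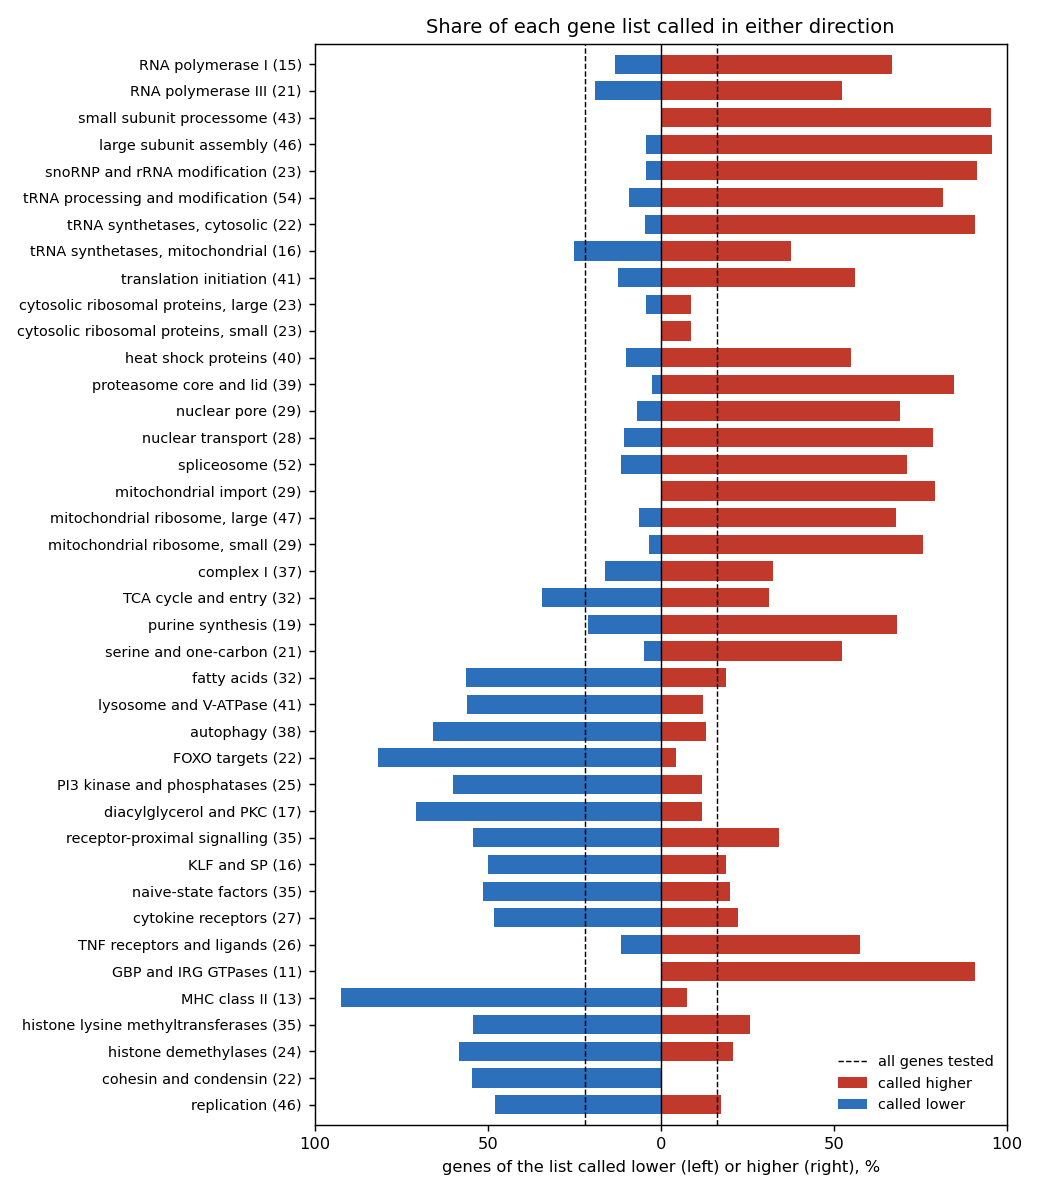
For 40 gene lists, with the number of genes measured in brackets, bars give the percentage called higher (red, to the right) and lower (blue, to the left) with peptide in wild-type cells; dashed lines mark all genes tested (16.3% higher, 22% lower). Lists of ribosome assembly, tRNA, proteasome, nuclear transport and mitochondrial import lie far to the right, and FOXO targets, autophagy, lysosome and diacylglycerol lists to the left.

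Genes that serve the nuclear envelope and splicing mostly rose. Of 28 nuclear transport genes 22 rose and 3 fell (median 0.81), and of 29 nuclear pore genes 20 rose and 2 fell. The importins Ipo4 (2.54) and Ipo5 (2.24) rose, as did Rcc1, the exchange factor that loads Ran with GTP (2.35), and Ranbp1 (1.64), while Xpo1, the main protein exporter, fell from 10.29, 10.28 and 10.03 to 9.401, 9.301 and 9.382 (-0.84, SE 0.093). Nup210 fell by 0.79. Of 52 spliceosome genes 37 rose and 6 fell (median 0.55; 3 fell without mouse 2). The assembly factors Wdr77 (1.98), a partner of the arginine methyltransferase Prmt5, and Gemin5 (1.92) led. SR and hnRNP proteins, which choose splice sites, were divided, with 21 of 50 up and 19 down. Syncrip rose by 1.47 and Tra2a by 1.38, and the SR kinases Srpk2 (-1.63) and Clk1 (-1.30) fell. The nuclear exosome gene Dis3 rose by 2.21, while in the same list of 32 RNA turnover genes (13 up, 9 down) the cytoplasmic 5′ exonuclease Xrn1 (-1.05) and Pan3, of a deadenylase (-0.89), fell.

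In mitochondria, genes of import and ribosomal proteins mostly rose, while those of tRNA synthetases (above), the respiratory chain and the citric acid cycle were mixed. Of 29 import genes 23 rose and 0 fell (median 0.58). The intermembrane chaperones Timm8a1 (2.95), Timm9 (5.732, 5.854 and 5.584 without and 8.46, 8.344 and 8.349 with peptide; 2.66) and Timm10 (2.51) led, with the outer channel Tomm40 (2.15). Mitochondrial ribosomal proteins rose in 32 of 47 cases for the large and 22 of 29 for the small subunit, with 3 and 1 falls, and Mrps6 (2.51), Mrps28 (2.06) and Mrpl17 (1.77) led. Of the 46 cytosolic ribosomal proteins above, 4 rose. Of 34 genes of mitochondrial gene expression 20 rose and 6 fell, with Pprc1, a coactivator related to PGC-1, up by 2.24 and Polg2, the accessory subunit of the DNA polymerase, down from 10.31, 9.921 and 9.934 to 7.829, 7.817 and 7.921 (-2.20, SE 0.11). Of 37 complex I genes 12 rose and 6 fell (13 fell after quantile normalization); the assembly factor Ndufaf4, and not a core subunit, led at 2.91. Complexes II to IV had 12 of 30 genes up and 4 down, with Cycs, cytochrome c, at 1.26, and ATP synthase 4 of 16 up and 3 down. Among 32 genes of the citric acid cycle and its entry 10 rose and 11 fell (7 fell without mouse 1). Idh3a, a catalytic subunit of the NAD-linked isocitrate dehydrogenase, rose by 1.33 and its partner Idh3g fell by 0.62. The NADP-linked Idh1 (-0.85) and Idh2 (-1.23) fell, and so did Pdk1, a kinase that restrains pyruvate entry (-1.49).

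Nucleotide synthesis genes rose more often than they fell. In purine synthesis 13 of 19 genes rose and 4 fell: Ppat, which commits to the pathway, rose by 2.17, Pfas by 2.58 and Gart by 2.16. Of the salvage genes, Aprt rose by 1.48 and Hprt by 0.57, and the kinase Adk fell by 0.57 on its brightest probe set (0.02 over the mean of its probe sets). In pyrimidine synthesis 9 of 23 rose and 6 fell: Ctps, CTP synthase, read 7.643, 7.396 and 7.589 without and 11.02, 10.88 and 10.88 with peptide (3.39, SE 0.1), Cad rose by 2.19 and Umps by 2.11, while the salvage kinases Dck (-1.73) and Tk2 (-1.15) fell. Of 21 genes of serine and one-carbon metabolism, which feeds both pathways, 11 rose and 1 fell. Psat1, of serine synthesis, rose by 3.16, Mthfd2, the mitochondrial folate enzyme, from 8.11, 7.67 and 7.807 to 10.43, 10.61 and 10.91 (2.78), Shmt2 by 2.63 and the folate carrier Slc19a1 by 2.97. Mat2b, the regulatory subunit of methionine adenosyltransferase, fell by 0.99. Polyamine genes, Srm among them, were mixed (6 of 14 up, 3 down), with Mtap, which recycles the by-product methylthioadenosine, up by 2.64 and Oaz2, an antizyme, down (-0.98).

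Nutrient carriers and redox genes held both rises and falls. Of 22 amino acid transporters 7 rose and 5 fell (31.8% and 22.7%, the latter near the 22% of all genes). Slc7a5, the large neutral amino acid carrier, rose by 3.00, its partner Slc3a2 by 1.38, the arginine carrier Slc7a1 by 2.55 and the glutamine carrier Slc1a5 by 1.99. The falls were those of Slc6a19, given above, Slc43a2, a facilitative carrier of neutral amino acids (-2.34), Slc38a9, the lysosomal arginine sensor (-0.74), Slc36a1 (-0.52) and Slc38a2 (-0.33, a call lost without mouse 1 or mouse 2). In glycolysis 11 of 25 genes rose and 2 fell, with Hk2, hexokinase 2, from 5.946, 4.81 and 5.884 to 9.252, 8.719 and 8.993 (3.44, SE 0.14), the lactate carrier Slc16a1 up by 2.39 and Pgam1 by 1.99. The pentose phosphate and NADPH list was divided (7 of 15 up, 6 down), with Nampt, which makes NAD from nicotinamide, up by 1.71 and Nadsyn1, which makes it from nicotinic acid, down (-1.08). The iron, heme and redox list was divided too (9 of 36 up, 15 down). Tfrc, the transferrin receptor, read 8.847, 8.869 and 8.868 without and 12.32, 12.2 and 12.14 with peptide (3.36, SE 0.11); Txnrd1, thioredoxin reductase, rose by 1.56, whereas Gpx4, which reduces lipid peroxides (-1.60), Cat, catalase (-1.39), and the heme enzymes Urod (-1.18) and Fech (-0.95) fell.

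Lipid genes were divided by role. Among 28 cholesterol genes 12 rose and 9 fell. Those that rose most make sterol (Cyp51 2.68, Idi1 2.54, Sqle 2.22 and Hsd17b7 1.92 on the log2 scale), and those that fell most export it, move it or limit its uptake (Abcg1 -1.75, Abca1 -1.32, Npc1 -1.62 and Mylip, which degrades the LDL receptor, -1.77). In the fatty acid list 18 of 32 genes fell and 6 rose (median -0.70). Fasn, fatty acid synthase, rose from 7.99, 7.952 and 8 to 9.948, 9.594 and 9.555 (1.72, SE 0.11), and Cpt1a, which admits fatty acids to mitochondria, fell from 8.689, 9.806 and 9.102 to 7.179, 8.1 and 7.528 (-1.60, SE 0.096). For Cpt1a the mice differed in level, mouse 2 being highest in both conditions, and the changes within mice were -1.51, -1.71 and -1.57. The acetate-activating enzymes Acss1 (-1.82) and Acss2 (-1.81) and the lysosomal lipase Lipa (-1.78) also fell. Of 37 sphingolipid and phospholipid genes 18 fell and 7 rose. The sphingomyelinases Smpd1 (-1.42) and Smpdl3a (-1.79) fell and the ceramide synthase Cers6 rose by 1.84.

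Lysosome and autophagy genes mostly fell. Of 41 lysosome and V-ATPase genes 23 fell and 5 rose (median -0.38; the count of rises was 3 without mouse 3), and of 38 autophagy genes 25 fell and 5 rose (median -0.57; 2 rose without mouse 3). Npc1, the lysosomal cholesterol exporter, read 7.084, 7.362 and 7.443 in mice 1 to 3 without peptide and 5.389, 5.746 and 5.886 with it (-1.62, SE 0.085, adjusted p = 8e-07), and its partner Npc2 fell by 1.37. Ctsd, the protease cathepsin D (-1.42), and Psap, prosaposin (-1.24), fell too. Tecpr1, which binds autophagosomes and damaged lysosomes, went from 10.88, 10.99 and 11.03 to 8.82, 8.784 and 9.078 (-2.07, SE 0.11). The initiation genes Rb1cc1 (-1.73) and Ulk2 (-1.46) and the lipid transfer gene Atg2a (-1.32) fell, and the 5 rises, among them Gabarapl1 (0.44) and Atg5 (0.35, a call lost without mouse 3), were all under 0.5. The E-box described above was in the promoters of 12 of 33 lysosome genes (36.4%), beside 31.4% of the processome genes, which rose. Under the same choice of promoters (the first listed for each gene, 1 chromosome left out), 3 fallen lysosome genes had a match before the start site. They are shown in the same way as before: Ctsd (chr7:142387893-142387952, minus strand), Mcoln1, a lysosomal calcium channel (chr8:3500447-3500506, plus strand, -0.92, and -0.03 on its brightest probe set of those not named x_at or s_at), and Glb1, beta-galactosidase (chr9:114401003-114401062, plus strand, -0.55).
Ctsd: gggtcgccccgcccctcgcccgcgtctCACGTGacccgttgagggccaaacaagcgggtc
Mcoln1: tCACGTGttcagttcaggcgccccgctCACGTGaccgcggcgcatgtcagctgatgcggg
Glb1: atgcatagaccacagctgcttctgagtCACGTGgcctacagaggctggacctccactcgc

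FOXO targets formed the list with the lowest median. Of 22 such genes 18 fell and 1 rose (median -1.30). Sesn1, a sestrin that restrains mTORC1, read 10.82, 11.01 and 10.82 without and 8.667, 8.841 and 8.947 with peptide (-2.07, SE 0.13). Pik3ip1 (-2.87), S1pr1 (-2.81), Fbxo32, Tsc22d3 and Il7r, the interleukin 7 receptor (-2.41), fell by more than 2. Nutrient sensing genes had 15 of 39 down and 5 up: besides Sesn1, Arrdc3, an arrestin-fold adaptor (-2.12), its relative Txnip, which pulls glucose carriers from the membrane (-1.87), and Castor2, a relative of an arginine sensor (-1.59), fell. The PI3 kinase list had 15 of 25 down and 3 up, with the regulatory subunit Pik3r1 (-1.36) and the AKT phosphatase Phlpp1 (-1.25) among the falls and Rheb, the GTPase that activates mTORC1, the largest rise (1.03). The 15 also hold Pdk1, which acts on pyruvate dehydrogenase and not in PI3 kinase signalling. The FOX motif TGTTTAC, searched on both strands, was in 3 of 17 FOXO target promoters (17.6%) and in 3.38% of all promoters. Among the fallen genes as a whole the share was 3.55%, near that of all, and among the risen 2.45%. The share of the FOXO list rests on 3 genes, and the part of FOXO factors in these falls was not tested. The list of 19 hypoxia targets, by contrast, had 8 up and 7 down (5 up without the mouse block).

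**Figure D4:**
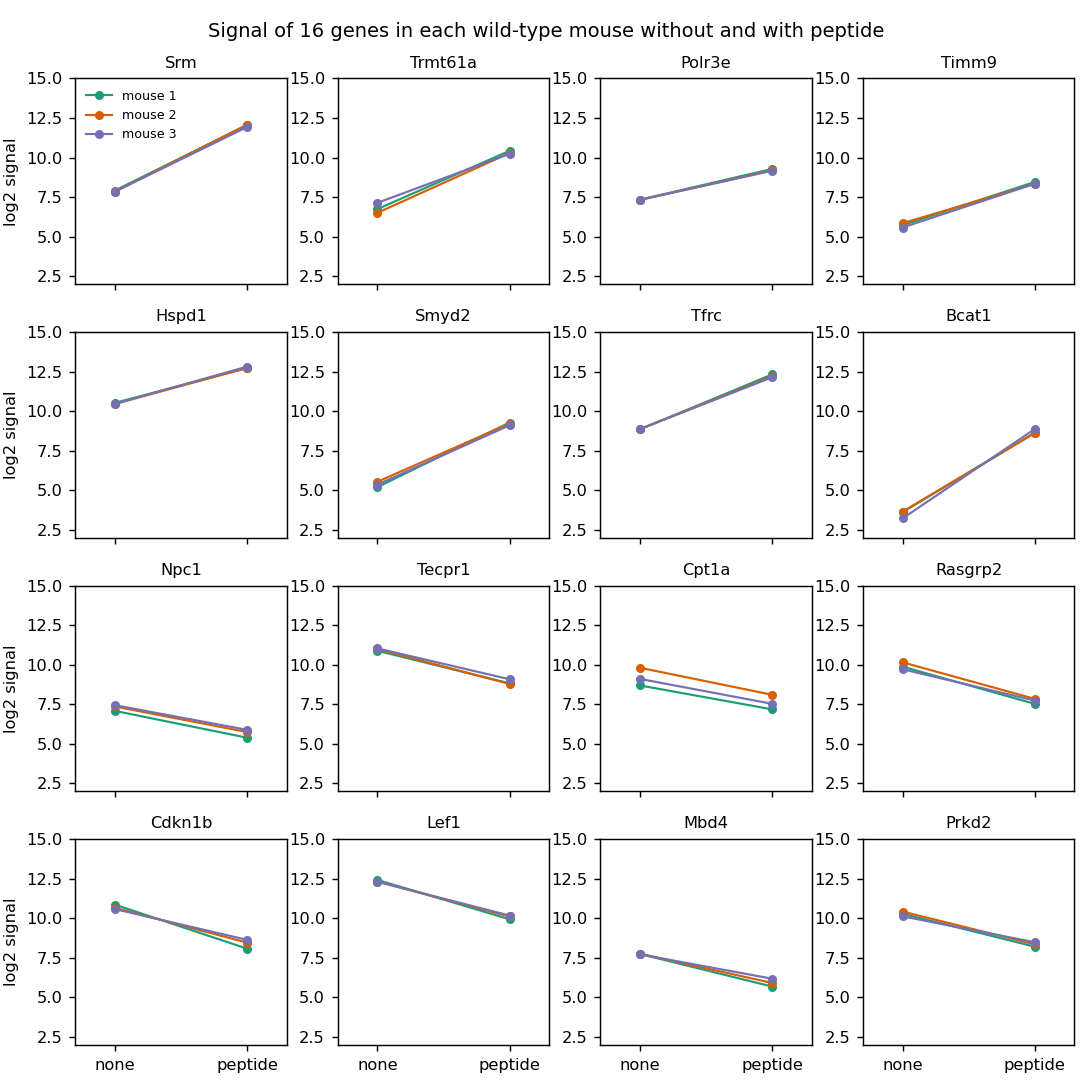
Log2 signal of 16 genes in each wild-type mouse without peptide and with peptide, 1 coloured line per mouse. Srm, Trmt61a, Polr3e, Timm9, Hspd1, Smyd2, Tfrc and Bcat1 rise and Npc1, Tecpr1, Cpt1a, Rasgrp2, Cdkn1b, Lef1, Mbd4 and Prkd2 fall in all 3 mice.

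Signalling genes next to the receptor were remodelled in both directions. Of 35 receptor-proximal genes 19 fell and 12 rose. Zap70, the kinase that phosphorylates the adaptor LAT, rose from 8.995, 8.991 and 9.007 to 11.33, 11.17 and 10.99 (2.17, SE 0.092), Lcp2, the adaptor SLP-76, by 1.80 and the phosphatase Ubash3b, an inhibitor of ZAP-70, by 3.23. Fyb, which links SLP-76 to integrins (-1.82), the Tec kinases Tec (-1.73) and Txk (-1.29), and Sh2d1a, the SLAM adaptor SAP (-1.59), fell. The diacylglycerol and protein kinase C list had 12 of 17 genes down and 2 up. Rasgrp2, an exchange factor for Rap1, fell from 9.876, 10.15 and 9.713 to 7.526, 7.84 and 7.735 (-2.21, SE 0.11). Dgka, the kinase that consumes diacylglycerol (-1.92), and the protein kinases Prkca (-1.05) and Prkcz (-1.29) fell too, while Prkci rose by 1.00 (0.24 without x_at and s_at probe sets, a call lost). A dimmer probe set of Prkca was called higher, by 0.27. Among 23 calcium and NFAT genes 10 fell and 4 rose, among the falls the store sensor Stim1 (-1.32) and the IP3 receptor Itpr3 (-1.46). Among 25 MAP kinase genes 10 fell and 5 rose (40% and 20%, beside 22% and 16.3% of all genes), with Map2k3 up by 2.53 and Map3k8 by 1.78, and Map3k1 down (-1.33).

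Feedback regulators were among the strongest signalling rises. In the Sprouty and SPRED list of 7, Spry1, Spred1 (2.08) and Spry2 (1.95) rose and 0 fell. Cish rose by 3.10 and Socs1 by 2.63, both inhibitors of cytokine signalling, within a list of SOCS, PIM and Jak genes with 9 of 15 up and 3 down. Rgs16, which shuts off G proteins below chemokine receptors, rose from 6.359, 6.285 and 5.999 to 10.05, 9.843 and 9.52 (3.59, SE 0.11), while Rgs2 (-1.38) and Rgs14 (-1.31) fell. Of 17 DUSP phosphatases 7 rose and 6 fell. In the NF-kappaB list 7 of 18 rose and 4 fell, with the atypical inhibitor Nfkbid up by 2.49 and Rel by 1.89, and the kinase Ikbke down (-2.09).

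Integrin and adhesion genes were divided (8 of 21 up, 9 down): Itga4 (-1.86), Itgb7 (-1.63) and Selplg, the selectin ligand PSGL-1 (-1.71), fell, and Cd44 (1.49), Itgb2 (1.43) and Icam1 (1.41) rose. Of 19 homing and egress genes 7 rose and 7 fell, with Cxcr3, a receptor for inflamed tissue, up by 1.34, and S1pr4 (-2.21), Cxcr4 (-1.69) and P2ry10 (-1.43) down. Of 51 Golgi glycosyltransferases 24 fell and 12 rose: the sialyltransferase St6galnac4 rose by 3.09 and the galactosyltransferase B4galt1 fell by 1.82.

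Among surface receptors, TNF family genes rose (15 of 26, 3 fell), and so did inhibitory and costimulatory receptors and ligands (12 of 24, 3 fell), Cd274, which encodes PD-L1, by 3.25 and Pdcd1lg2, PD-L2, by 2.31. Of 27 cytokine receptors 13 fell and 6 rose. Il15ra rose from 5.186, 4.782 and 5.171 to 8.425, 8.043 and 8.007 (3.11, SE 0.11) and Il12rb1 by 2.12, whereas both chains of the interferon gamma receptor fell, Ifngr1 (-1.70) and Ifngr2 (-1.84). Interferon-inducible GTPases of the GBP and IRG families rose in 10 of 11 cases and fell in 0 (median 2.06), from Iigp1 (3.89) and Irgm1 (3.16) downward, and in a list of 30 interferon-stimulated genes 14 rose and 3 fell, Ifit2 (-1.04) among the falls. The interferon-stimulated response element, searched on both strands, was in 7 of 8 GBP and IRG promoters in the RefSeq table (87.5%), in 11 of 20 of that list (55%) and in 3.64% of all promoters. Of 18 BCL2 family genes 3 rose and 7 fell (16.7% and 38.9%, beside 16.3% and 22% of all genes): the survival genes Bcl2l1 (2.03) and Bcl2 (1.65) and the death gene Bid (1.70) rose, and the death genes Bmf (-1.38, and -0.14 without x_at and s_at probe sets, a call lost) and Bcl2l11, BIM (-0.95), fell. Of 17 granule and killing genes 7 rose and 2 fell, Prf1, perforin, by 1.61. Among 8 GIMAP GTPases 5 fell and 2 rose (3 fell without mouse 2 and 1 rose without mouse 3).

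MHC class II genes, which T cells of the mouse do not normally express, fell in 12 of 13 cases (median -0.54; 7 fell without the mouse block), with Marchf1, a ligase that removes class II from the surface (-1.54), and the peptide-loading genes H2-DMa (-0.98) and H2-Ob (-0.85) the largest. The B cell genes Cd79b (-1.42), Fcrla (-1.40) and Ighm (-1.12) fell alongside. The mean of the 14 B cell markers was lower in each array with peptide than in any without it, by the ranges given above, and the part of B cell number in the class II result was not tested. Of the 22 myeloid and dendritic cell markers 5 rose and 7 fell (4 fell without mouse 1 or mouse 3). Their median change was -0.07 and the lowest -1.21, and Cd83 (1.67), Ccl22 (1.41) and Ccl17 (1.11) were among the rises.

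Transcription factors of the resting state fell more often than they rose, and early-response factors mostly rose. Of 35 naive-state factors 18 fell and 7 rose (51.4% and 20%, beside 22% and 16.3% of all genes), with a median of -0.32. Lef1, a partner of beta-catenin and of TCF-1, read 12.42, 12.31 and 12.31 without and 9.934, 10.11 and 10.17 with peptide (-2.28, SE 0.11), and the antiproliferative gene Tob1 (-1.84), Foxo3 (-1.37) and Ets1 (-1.34) fell. Of 16 KLF and SP genes 8 fell and 3 rose, with Klf3 (-2.82) and Klf2, the activator of S1pr1 (-2.37), lowest. In the opposite direction went 13 of 18 AP-1 genes (2 fell), led by Fosl1 (3.65) and Atf3 (3.01), and 5 of 6 EGR and NAB genes (0 fell), Egr2, Egr3 and Egr1 by 3.58, 3.51 and 3.45. Of 21 nuclear receptors 5 rose (3 without mouse 1, where Ppard and Rara lost their calls) and 7 fell. Those that rose were Nr4a2 (3.36), Nr4a3 (3.18), Nr4a1 (2.84), Ppard (0.39) and Rara (0.38), and among the falls were Nr2c2 (-1.58), the thyroid hormone receptor Thra (-1.38) and the glucocorticoid receptor Nr3c1 (-1.09). Irf4 rose from 8.843, 8.453 and 8.882 to 12.69, 12.41 and 12.69 (3.87, SE 0.15) and Irf8 from 9.004, 8.925 and 8.65 to 12.16, 11.91 and 11.97 (3.15). In the clock list of 20 genes 6 rose and 4 fell (30% and 20%, beside 16.3% and 22% of all genes), Ciart by 2.00 and Per1 by 1.16.

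Chromatin genes fell more often than they rose, but single enzymes ran against their class. Of 35 histone lysine methyltransferases 19 fell and 9 rose. Smyd2 read 5.202, 5.54 and 5.356 without and 9.282, 9.218 and 9.108 with peptide (3.84, SE 0.12, adjusted p = 9.1e-08), Smyd5 rose by 2.48 and Dot1l, the H3K79 methyltransferase, by 2.01, while Nsd3 (-1.53), Setd1b (-1.45) and Kmt2a (-1.40) fell. Of 24 histone demethylases 14 fell and 5 rose, and of 30 acetylation genes 15 fell and 3 rose, with the acetyltransferases Kat2b (-1.23) and Ep300 (-1.13) down and Hat1, which acetylates new histones, up by 1.28. Arginine methyltransferases mostly rose (7 of 11, 2 fell, median 1.35), Prmt6 by 2.37 and Prmt1 by 1.39, with Prmt9 (-1.14) and Prmt2 (-0.98) falling. Mbd4, a glycosylase that repairs deaminated methylated sites, fell from 7.744, 7.76 and 7.717 to 5.683, 5.913 and 6.181 (-1.81, SE 0.11). Cohesin and condensin genes had 12 of 22 down and 0 up (1 up without mouse 1 or mouse 3), with the condensin genes Smc4 (-1.78) and Ncapd3 (-1.28) lowest.

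Among cell cycle genes, those of G1 were called in 24 of 38 cases and those of mitosis in 6 of 32, beside 16.3% risen and 22% fallen among all genes. Calls depended on signal, and these lists were not matched for it. Among 38 G1 cyclins and inhibitors 10 rose and 14 fell. Cdkn1b, the inhibitor p27, fell from 10.86, 10.66 and 10.58 to 8.082, 8.459 and 8.637 (-2.31, SE 0.16), with the inhibitor Cdkn2d (-2.28), the quiescence cyclin Ccng2 (-2.30) and the pocket protein Rbl2 (-1.84). The D-type cyclin Ccnd2 (3.04) and its partner kinases Cdk4 (1.64) and Cdk6 (1.19) rose, and Cdkn1a, the inhibitor p21, rose from 7.639, 7.324 and 7.792 to 10.24, 10.05 and 10.31 (2.61). Of 46 replication genes 22 fell and 8 rose, with the helicase subunit Mcm7 (-1.03), the ligase Lig1 (-1.04) and geminin, Gmnn (-1.39), among the falls and the polymerase subunit Pold2 (1.68) the largest rise. After that centring on brighter probe sets 13 replication genes rose. Of 32 mitosis genes 5 fell and 1 rose (8 fell without mouse 2), the centromere genes Cenpa (-1.57) and Ndc80 (-1.52) most. Of 30 p53 targets and repair genes 15 fell and 6 rose, with Aen, an apoptotic nuclease, up by 2.54 and Brca1 down (-1.41).

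Some close relatives moved in opposite directions, and 17 such pairs, picked out after their values were seen, are plotted. In CTP synthesis Ctps rose by 3.39 and Ctps2 fell by 1.44. Of the alternative RNA polymerase III subunits, Polr3g rose by 1.13 and Polr3gl fell by 0.92. Of the cap-binding proteins, Eif4e rose and Eif4e3 fell by 1.15. The de novo DNA methyltransferase Dnmt3a rose by 1.39 and the maintenance enzyme Dnmt1 fell by 1.06. The H3K27 demethylase Kdm6b rose by 2.00 and its relative Kdm6a fell by 0.79. Orai1, the pore of store-operated calcium entry, read 9.616, 9.397 and 9.363 without and 10.99, 10.89 and 10.64 with peptide (1.38), and Orai2 read 8.996, 9.374 and 9.053 and then 6.941, 7.105 and 6.93 (-2.15, SE 0.093), with no overlap between conditions for either gene. Nfatc1 rose by 0.92 and Nfatc3 fell by 1.79. Of the message-destabilising zinc finger proteins Zfp36 rose by 1.11 and Zfp36l2 fell by 1.85, and of the phosphatases Dusp6, which acts on ERK, rose by 2.33 while Dusp10 fell. Insig1 rose by 1.69 and Insig2 fell by 0.52, Jak3 rose by 0.51 and Jak1 fell by 1.26, and Zeb2 rose by 1.42 and Zeb1 fell by 0.96. Of the remaining pairs, Ubash3a fell by 1.28, Klf9 rose by 1.56, Ccnd3 fell by 1.14, and the sialyltransferases St3gal1 and St8sia1 moved by 1.76 and -2.12.

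**Figure D5:**
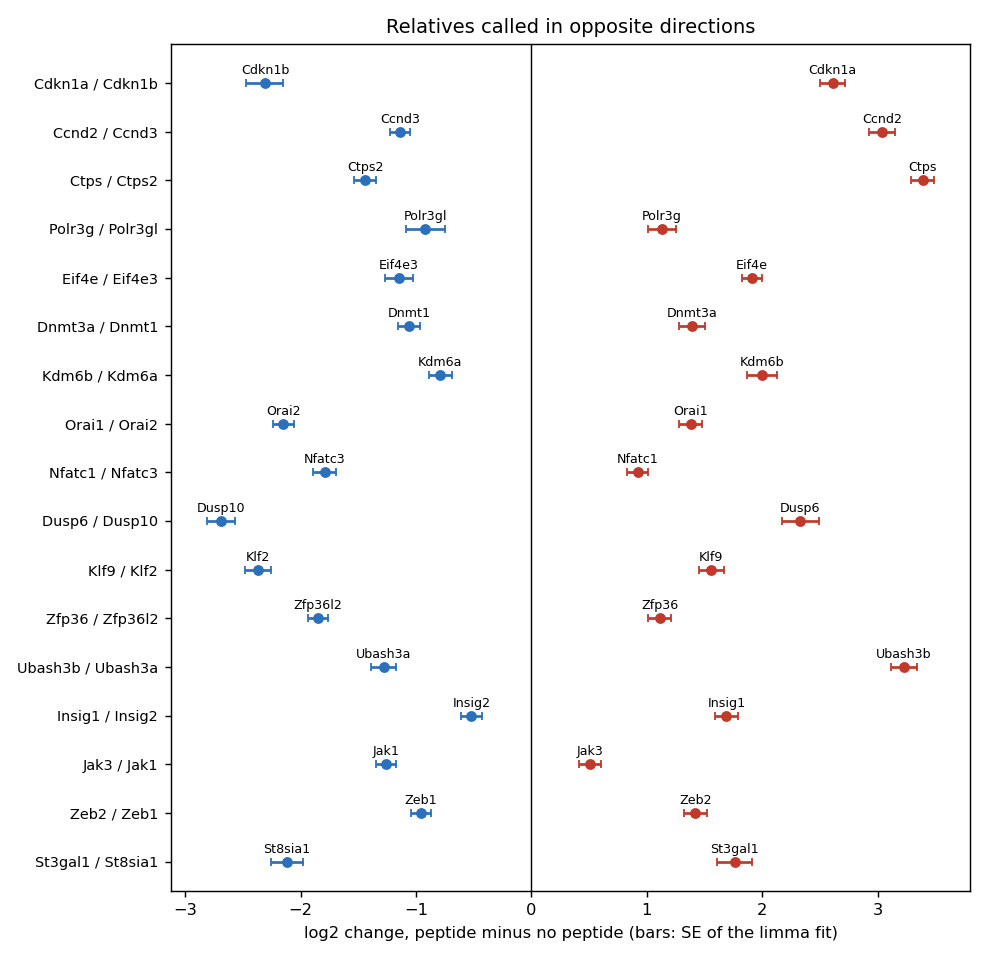
Log2 change, peptide minus no peptide, of 17 pairs of related genes called in opposite directions in wild-type cells, the risen member in red and the fallen one in blue, with bars for the SE of the limma fit. The pairs were picked out after their values were seen, and the widest apart are Dusp6 with Dusp10 and Cdkn1a with Cdkn1b.

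Families were also taken by symbol alone. Of 339 genes named Zfp, mostly zinc finger factors, 123 fell (36.3%) and 32 rose (9.44%), beside 22% and 16.3% of all genes. In the 2 brighter of the 4 groups by mean signal, 38.9% and 39.7% of genes fell and 21.4% and 33.7% rose. The families were not matched for signal. Of 32 Fbxo genes 13 fell and 1 rose, of 33 Klhl genes 14 and 1, and of 42 Kif genes 18 and 2. Of 81 Rab genes 27 fell and 7 rose. Among 35 Ddx genes, which encode RNA helicases, 20 rose and 5 fell, and among 362 Slc genes the shares were near the background, with 66 up (18.2%) and 59 down (16.3%). Fbxo and Klhl proteins are adaptors of ubiquitin ligases, and of 34 ubiquitin ligase genes of T cells 19 fell and 5 rose (Siah2 the largest rise, 1.31).

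Some genes carry probe sets that disagree, which matters where a single probe set stands for the gene. Of 9010 genes with more than 1 probe set, 157 (1.74%) had probe sets called in opposite directions. Bbip1 had probe sets at 1.1 and 0.81 and its brightest at -2.39, and Sla, a receptor-proximal adaptor, had 3 at 1.77 to 2.03 and a dim one at -1.04. The probe sets were not matched to transcript forms here, so neither value stands for the whole gene.

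The wild-type response was compared with that of PKD2-null cells only to see where it differs. Of 18193 genes 25 (0.137%) had a response that differed between genotypes (wild type minus null, limma interaction, adjusted p under 0.05). Those named in the text or plots were Bcat1, whose rise was larger in wild type by 1.32 (SE 0.18, adjusted p = 0.049), Ccl3 (1.94), Slamf7 (1.42), Irf8 (1.22) and Zeb2 (1.09), as well as Prkd2 itself (-1.26) on an x_at probe set, which also fell in the null by 0.66 (SE 0.12, adjusted p = 0.0016, limma). The count depended on the fit: it was 1 without the mouse block and 7, 3 and 1 without wild-type mouse 1, 2 and 3. No other group above was tested for a genotype difference.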

How the data were processed

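Values were log2 signals of Affymetrix mouse genome arrays, used as deposited by the authors and made with Affymetrix Expression Console 1.1 per the submitters' processing notes. Their normalization was not given in the sources used here. Array medians lay between 4.66 and 4.72, so no further normalization was applied. Of 45101 probe sets 64 controls were left out, 34945 of the other 45037 had 1 gene symbol in GEO's platform annotation, 932 had several and 9160 none. Each of 18193 genes was represented by the probe set with the highest mean over the wild-type arrays.

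All 12 arrays were fitted in limma 3.58.1 (R 4.3.3, lmFit and eBayes) with the mouse as a block and a peptide effect for each genotype (4 residual and 5.32 prior degrees of freedom). P-values were two-sided and adjusted over 45037 probe sets (Benjamini and Hochberg). Arrays were paired by the animal number of each label. After subtraction of group means, arrays correlated at 0.402, 0.116 and 0.331 within mouse 1, 2 and 3, against at most -0.139, 0.0831 and 0.129 with another mouse. The 3 mice of a group are separate animals.

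Named were the 25 largest rises and falls moving the same way in all 3 mice, Prkd2, up to 5 called members of each list in each direction, and members of lists of 12 or fewer; cell markers, the genes of the promoter windows, and other genes were picked out after their values were seen. The comparison, the lists and the genes were chosen with earlier results of these data known. The fit was tested on simulated data. Alternatives were no block, wild-type arrays alone, leaving out each mouse, other scaling, filtering, probe set choices, variance model and threshold. Probe sets named x_at or s_at may cross-hybridise. 1 group of genes is not reported here.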

Additional observations from a re-analysis of the deposited data

Results flagged for a closer look

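The response to peptide differed between wild-type and PKD2-null cells in 6 of the genes named here, by a limma interaction over all probe sets (wild type minus null, on the log2 scale). The rise was larger in wild type for the chemokine gene Ccl3 (by 1.94), for Slamf7 (by 1.42), Bcat1 (by 1.32), Irf8 (by 1.22) and Zeb2 (by 1.09). Prkd2, the gene deleted in the null, differed by -1.26 on an x_at probe set, its wild-type signal falling from a high level. For a deleted gene the response and the loss of the gene cannot be told apart here.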

How the results depend on the processing

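The 4 wild-type counts (genes that rose or fell, and those that did so by at least 1) stayed within 1.5 times their value in all 12 alternatives. Of the 353 called genes among those named, 346 to 353 kept direction and call in each, over those with a value. Leaving out the mouse block (the pairing) gave 2753 rises and 3700 falls, and leaving out mouse 1, 2 or 3 gave 2539 to 2635 and 3473 to 3670. The number of genes whose response differed from PKD2-null cells was 25 and changed in most alternatives: 1 without the block, 1 to 7 without 1 wild-type mouse, 0 with dim probe sets left out, 43 with the mean of all probe sets, 130 with a trended robust variance and 0 at an adjusted p under 0.01; the cause was not tested. Adk reversed to 0.02 with the mean of its probe sets. Without x_at and s_at probe sets Eef2k (-0.02), Bmf (-0.14), Mcoln1 (-0.03) and Prkci (0.24) lost their calls. Of 210 counts over lists, 4 to 25 moved by more than 1.5 times in an alternative, most where few genes were called. The 3 mice a group limit the precision.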
